A study of Mus musculus with 18 samples.

Results

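The footprints of mice that lack *Gtpbp1* were compared with those of mice that lack *Gtpbp2*, gene class by gene class. The comparison uses 6 of the 18 libraries of the study, 3 footprint libraries of each mutant, taken by their sample titles. The study sequenced RNA and ribosome footprints of the mouse cerebellum at 3 weeks of age, with 3 mice of either sex for each genotype and assay and 1 cerebellum for each library. Its groups are B6J, B6J.*Gtpbp1*-/- and B6J-*Gtpbp2*-/- mice, the last of which carry the nmf205 point mutation. In the *Gtpbp1* line exonic sequence is replaced by a PGK-Neo cassette, and the allele was backcrossed to B6J from a mixed background. All 3 genotypes share the B6J strain's n-Tr20 mutation in a gene for the tRNA that reads AGA codons. They are called *Gtpbp1*-null, *Gtpbp2*-null and B6J mice here. The *Gtpbp1*-null libraries held 7054063, 8612441 and 5944024 counted footprints, and the *Gtpbp2*-null libraries held 6281637, 3630823 and 10442573. Replicate 2 of the *Gtpbp2*-null mice was the shallowest of the 6, and replicate 3 of that genotype the deepest. All footprint libraries belong to the same batch in the labels.

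A ribosome footprint is the stretch of mRNA that a translating ribosome shields from nuclease, so the number of footprints on a coding sequence reflects both how much of the mRNA there is and how many ribosomes it carries. GTPBP1 and GTPBP2 are related GTPases of the family that includes the ribosome rescue factor HBS1L, and both are known for their part in resolving ribosomes that stall on mRNA. Stalled ribosomes can activate the kinase GCN2, and with it the integrated stress response, in which ATF4 is translated and turns on genes for amino acid uptake and synthesis. Levels below are footprint counts scaled to library size with TMM factors (CPM), in the order of replicates 1, 2 and 3. Differences are *Gtpbp1*-null minus *Gtpbp2*-null on the log2 scale, so that a positive value is higher without GTPBP1. Their p-values come from edgeR's quasi-likelihood test with 3 mice in each group.

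The targeted genes matched the labels. *Gtpbp1* footprints, counted over the whole coding sequence and so also on exons outside the replaced part, stood at 32.0, 25.5 and 35.6 CPM in *Gtpbp1*-null mice, 79.4, 66.8 and 62.1 CPM in *Gtpbp2*-null mice and 73.6, 117 and 84.9 CPM in B6J mice. Every *Gtpbp1*-null mouse lay below every other mouse, with a log2 difference between the mutants of -1.16 ± 0.20 (SE) and an unadjusted p of 6.32e-05. *Gtpbp2* had 36.2, 43.3 and 58.3 CPM in *Gtpbp1*-null mice, 28.9, 26.4 and 7.54 CPM in *Gtpbp2*-null mice and 44.8, 36.1 and 38.5 CPM in B6J mice. It was lowest in the *Gtpbp2*-null mice, with replicate 3 far below replicates 1 and 2, and the mutants did not overlap (log2 difference 1.16 ± 0.43 (SE), unadjusted p 0.0232). Among the other 195 tested genes within 5 Mb of *Gtpbp1* on chromosome 15, 9 were higher and 11 lower at an unadjusted p under 0.05, with a median log2 difference of 0.03. Within 5 Mb of *Gtpbp2* on chromosome 17, 81 genes were tested, of which *Slc29a1* and *Pla2g7* were higher and *Ubr2* lower by the same measure, with a median of 0.02.

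After Benjamini-Hochberg adjustment of edgeR's p-values, no gene was at 0.05 or below (0 of 14142 genes tested, 0%), out of 22523 genes in the files. At an unadjusted p under 0.05 the same test gave 770 genes higher (5.44%) and 753 lower (5.32%) in *Gtpbp1*-null mice. The 3 values of each genotype did not overlap for 1216 genes that were higher (8.60%) and 1078 that were lower (7.62%). DESeq2 called 59 genes higher and 41 lower at its own adjusted p of at most 0.05, and 712 and 738 at an unadjusted p under 0.05. With *Gtpbp2*-null replicate 3 left out, edgeR called 3 genes higher and 30 lower with Benjamini-Hochberg adjustment, and with any other single library left out it called none. The counts at an unadjusted p under 0.05 were 439 higher and 359 lower without *Gtpbp2*-null replicate 1, and 494 and 374 without *Gtpbp2*-null replicate 2. The typical precision was a 95% confidence interval of ± 0.53 log2 units at the median gene, and 9483 genes (67.1%) had an interval wholly between -1 and 1. A missed threshold does not show that a gene did not differ. For this reason the classes below are described by the median of their tested members, by how many members lay at an unadjusted p under 0.05 in each direction, and by the level in each mouse. Counts of 3 or fewer in a list rest on little, since leaving out single libraries took many of them to 0 and raised others. Every count in a list is to be set beside the shares over all tested genes, 5.44% higher and 5.32% lower. Where a list's medians with 1 library left out are given as a range, the counts higher and lower beside it are at an unadjusted p under 0.05. All tested genes together had a median difference of 0.00 and quartiles of -0.23 and 0.24, and 37 of the 53 lists had a median above 0. Leaving out 1 library moved the median by over 1.5 times, or changed its sign, in 49 of the 53 lists. The other 4 were those of mitochondrial ribosomal proteins, nuclear genes of oxidative phosphorylation, granule neurons and bone.

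The single genes of smallest p were led by transcripts of bone and muscle among those higher in *Gtpbp1*-null mice. *Bglap*, which encodes the bone matrix protein osteocalcin, had 19.5, 15.3 and 18.4 CPM in *Gtpbp1*-null and 2.97, 4.68 and 1.35 CPM in *Gtpbp2*-null mice. Its near-identical neighbour *Bglap3* had 7.06, 3.79 and 9.18 CPM and 0.313, 0.550 and 0.0967 CPM. Every *Gtpbp1*-null mouse was above every *Gtpbp2*-null mouse for both, although footprints of such copies cannot be assigned with certainty. The adjusted p from edgeR was 0.0665 for both after Benjamini-Hochberg adjustment, with log2 differences of 2.68 for *Bglap* and 4.60 for *Bglap3* that 3 of 3 *Gtpbp1*-null mice showed. *Acta1*, the actin of skeletal muscle, stood at 14.1, 9.65 and 22.2 CPM against 2.97, 3.85 and 2.71 CPM. *Alpl*, the alkaline phosphatase needed for mineralization, stood at 26.8, 26.9 and 21.9 CPM against 11.4, 9.35 and 8.51 CPM. The mutants did not overlap in either gene. *Prg2*, the major basic protein of eosinophils, *Myh2*, a myosin heavy chain of fast muscle, and *Cnmd*, a cartilage protein, belonged to the same 10 genes. *Myh2* was at 0 in all *Gtpbp2*-null mice and at 4.76, 2.41 and 1.503 CPM in *Gtpbp1*-null mice, which makes it at least 19.8-fold higher against a floor of 3 counts over the group. *Bglap3*, *Prg2* and *Myh2* had fewer than 5 counts in every *Gtpbp2*-null library, so that they entered the test, and with it this order of p, by their *Gtpbp1*-null counts alone.

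The remaining genes among these 10 are made by brain cells as well. *Tuba1a*, the main alpha tubulin of growing neurons, had 62.4, 63.2 and 58.1 CPM in *Gtpbp1*-null mice and 31.3, 34.7 and 24.1 CPM in *Gtpbp2*-null mice, against 50.8, 53.7 and 83.3 CPM in B6J mice. Its near-copy *Tuba1c* had 81.4, 75.4 and 87.2 CPM and 40.3, 46.5 and 33.8 CPM in the mutants. The *Gtpbp2*-null mice were below all other mice for both genes, although footprints that fit either tubulin cannot be assigned with certainty. *Snrpa*, a protein of the U1 splicing particle, was at 41.4, 41.0 and 40.1 CPM in *Gtpbp1*-null mice and 18.0, 20.4 and 23.9 CPM in *Gtpbp2*-null mice, again without overlap.

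Of the 10 genes of smallest p that were lower in *Gtpbp1*-null mice, *Gtpbp1* itself was one. The smallest p of all, 8.72e-06, was that of the predicted gene *Gm10801*, which had no footprint in any *Gtpbp1*-null mouse and 14.8, 4.95 and 4.74 CPM in *Gtpbp2*-null mice. It was at least 57.3-fold lower, and *Gm10717*, at 4.06, 2.48 and 1.45 CPM in *Gtpbp2*-null mice and 0 in all *Gtpbp1*-null mice, at least 17.7-fold lower. Both are predicted genes with copies elsewhere in the genome, so their counts are uncertain, and they entered the test by their *Gtpbp2*-null counts alone. *Snrnp70*, the U1 particle's 70K protein, had 59.2, 73.1 and 78.7 CPM in *Gtpbp1*-null mice and 215, 168 and 113 CPM in *Gtpbp2*-null mice (log2 difference -1.23 ± 0.23 (SE)). *Safb2*, a nuclear scaffold protein, showed the same order with 24.1, 23.1 and 25.6 CPM against 88.8, 71.5 and 40.6 CPM. In both genes replicate 3 of the *Gtpbp2*-null mice lay closest to the *Gtpbp1*-null mice. B6J mice had 99.6, 104 and 64.2 CPM of *Snrnp70*, below every *Gtpbp2*-null mouse. *Lrrc45* (-2.03), a centrosome protein, and *Atg16l2* (-2.25), a homolog of an autophagy factor, were also lower in every *Gtpbp1*-null than in every *Gtpbp2*-null mouse, but there B6J mice overlapped the *Gtpbp2*-null mice. *Ivns1abp*, an actin-binding kelch protein, had 43.7, 47.1 and 42.6 CPM and 87.3, 89.1 and 94.0 CPM, with little spread inside each group. The giant scaffold protein gene *Ahnak* (-1.03) and the neuronal chromatin remodeller *Chd5* (-1.15) completed the 10.

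**Figure D1:**
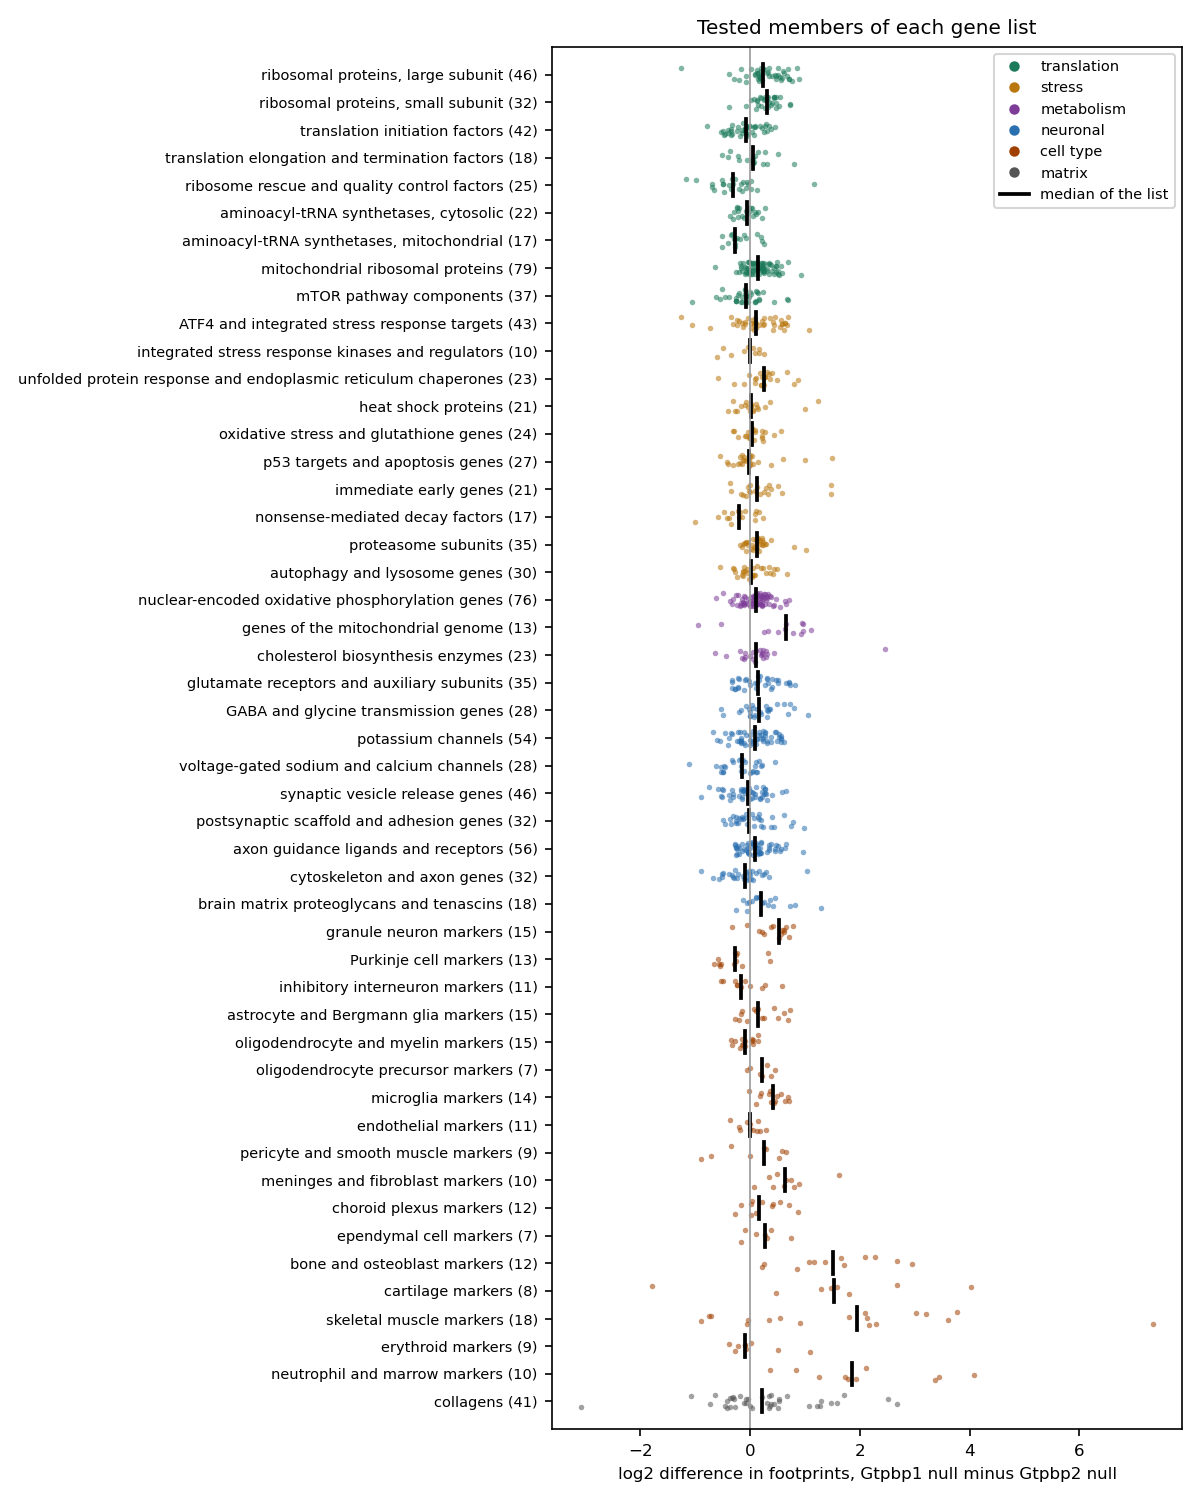
Log2 difference in footprints between *Gtpbp1*-null and *Gtpbp2*-null mice for each tested member (points) of the lists with at least 5 tested members, with the number tested in brackets and the median as a black bar. Ribosomal protein, granule neuron and bone lists lie mostly to the right of 0, and the ribosome rescue list mostly to the left.

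In the translation machinery, proteins of the ribosome lay mostly on one side. Among 46 tested genes for the large subunit, 39 had a positive difference, the median was 0.24, and 13 were higher and 0 lower at an unadjusted p under 0.05. The small subunit gave a median of 0.31 over 32 genes, with 30 positive, 10 higher and 0 lower. Groups did not overlap for 9 large-subunit and 8 small-subunit genes, in each case with the *Gtpbp1*-null mice higher. Summed over the large subunit, the level was 4639, 3225 and 3713 CPM in *Gtpbp1*-null and 3608, 3092 and 2923 CPM in *Gtpbp2*-null mice, against 2979.7, 2709 and 3122 CPM in B6J mice. Replicate 1 of the *Gtpbp1*-null mice was the highest library and the sums of the groups overlapped, as did those of the small subunit. Fewer small-subunit genes lay at an unadjusted p under 0.05 without *Gtpbp1*-null replicate 1 (2), without *Gtpbp2*-null replicate 3 (2) and without *Gtpbp2*-null replicate 1 or 2 (6 each). The large-subunit median was 0.13 with 9 higher and 2 lower without *Gtpbp1*-null replicate 1, 0.38 without *Gtpbp2*-null replicate 1, and 0.12 with 7 higher and 2 lower with sex as a covariate, and 1 was lower without *Gtpbp2*-null replicate 3. The small-subunit median was 0.20 without *Gtpbp1*-null replicate 1 and 0.19 with 2 higher with sex as a covariate. The sex covariate set only *Gtpbp1*-null replicate 1 apart, so it is not a check separate from leaving that library out. Many ribosomal protein genes have processed pseudogenes, so that single members are uncertain.

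The clearest member of the large subunit was *Rpl27a*, with 90.8, 76.8 and 90.2 CPM in *Gtpbp1*-null and 51.9, 38.5 and 48.4 CPM in *Gtpbp2*-null mice. B6J mice had 65.1, 75.8 and 67.2 CPM, between the mutants, and the difference between the mutants was 0.89 ± 0.18 (SE) with an unadjusted p of 0.000392. In the small subunit *Rps26* was clearest, at 91.4, 69.1 and 75.8 CPM and 45.9, 47.6 and 48.6 CPM. The mutants did not overlap in either gene. *Rpl4*, the large-subunit gene with the most footprints, overlapped at 336, 241 and 213 CPM against 288, 237 and 224 CPM. *Rack1*, which has the most footprints of its list and encodes a small-subunit protein that also acts in quality control of collided ribosomes, was at 296, 237 and 275 CPM against 213, 232 and 209 CPM, higher in each *Gtpbp1*-null mouse. *Rplp0* (0.16) and *Rps29* (0.17) had differences smaller than their standard errors.

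Factors that rescue stalled ribosomes or deal with their products lay on the other side. Of 25 tested, 21 had a negative difference, with a median of -0.32. At an unadjusted p under 0.05, 6 were lower and 1, *Gtpbp2* itself, higher. Among the lower ones were *Gtpbp1* itself, *Gigyf2*, which represses translation of mRNAs with collided ribosomes, *Ankzf1*, which releases stalled peptides from tRNA, *Rnf10*, a ubiquitin ligase for small-subunit proteins, and *N4bp2*. Groups did not overlap for 8 lower and 1 higher members. The summed level was 1792, 1813 and 1554 CPM in *Gtpbp1*-null and 2067, 2016 and 1842 CPM in *Gtpbp2*-null mice, so that each *Gtpbp1*-null mouse was below each *Gtpbp2*-null mouse. B6J mice had 2002, 1936 and 1953 CPM, and *Tcf25*, the member with the most footprints, made up 23.7% of the sum over the mutants. *Gigyf2* had 53.9, 46.2 and 33.2 CPM and 92.3, 64.4 and 54.2 CPM, again without overlap (log2 difference -0.66 ± 0.24 (SE)). *Hbs1l*, a relative of both targeted genes, stood at 30.0, 27.3 and 26.2 CPM and 30.8, 42.1 and 33.0 CPM, without overlap but with an unadjusted p of 0.116. Its partner *Pelo* overlapped (19.9, 26.0 and 16.9 CPM against 19.5, 24.2 and 22.7 CPM). *Gigyf2*, *Hbs1l* and *Pelo* were chosen after their values were seen. The count of lower members went to 1 without *Gtpbp2*-null replicate 1, 2 without *Gtpbp2*-null replicate 2 and 3 without *Gtpbp1*-null replicate 2, and the median to -0.20 without *Gtpbp1*-null replicate 3.

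Initiation factors had a median of -0.08 over 42 genes, with *Eif3f* and *Eif6* higher and *Eif4g3* lower at an unadjusted p under 0.05. The leave-one-out median of initiation factor genes ran from -0.20 (without *Gtpbp1*-null replicate 1) to 0.04 (without *Gtpbp1*-null replicate 3), with 0 to 3 higher and 1 to 8 lower. *Eif4g3*, a scaffold of the cap-binding complex, was at 149.8, 133 and 77.7 CPM in *Gtpbp1*-null and 233, 245 and 148 CPM in *Gtpbp2*-null mice, where the highest *Gtpbp1*-null mouse was just above the lowest *Gtpbp2*-null mouse. Elongation and termination factors had a median of 0.05 over 18 genes, with only *Eef1e1* at an unadjusted p under 0.05 (64.4, 54.9 and 48.4 CPM against 36.3, 28.1 and 32.3 CPM, higher in every *Gtpbp1*-null mouse). Across fits with 1 library left out, elongation factor medians ran from 0.01 (without *Gtpbp1*-null replicate 2) to 0.13 (without *Gtpbp1*-null replicate 3), with 1 higher and 0 to 1 lower. *Eef1a2*, an elongation factor of mature neurons with the most footprints of its list, overlapped at 1846, 1743 and 1601 CPM and 1705, 1579 and 1769 CPM. Components of the mTOR pathway had a median of -0.08 over 37 genes. At an unadjusted p under 0.05, 2 were higher, the scaffold subunits *Lamtor1* and *Lamtor2*, and 3 lower, the S6 kinases *Rps6kb1* and *Rps6kb2* and the inhibitor *Tsc1*. These were 5.41% and 8.11% of the list, near the 5.44% and 5.32% of all tested genes. For mTOR pathway genes, leave-one-out medians ran from -0.14 (without *Gtpbp2*-null replicate 1) to -0.00 (without *Gtpbp2*-null replicate 3), with 0 to 3 higher and 1 to 5 lower. *Rps6kb1* was at 27.8, 29.5 and 23.7 CPM and 47.3, 42.9 and 34.9 CPM, without overlap.

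The enzymes that charge cytosolic tRNAs had a median difference between the mutants of -0.07 over 22 genes, none was at an unadjusted p under 0.05 in edgeR's test, and the confidence intervals of 22 lay between -1 and 1. Medians of cytosolic synthetase genes in leave-one-out fits ran from -0.16 (without *Gtpbp1*-null replicate 1) to -0.02 (without *Gtpbp1*-null replicate 3), with 0 to 2 higher and 0 to 3 lower. Summed, they had 4383, 3849 and 3642 CPM in *Gtpbp1*-null, 4495, 4020.2 and 3938 CPM in *Gtpbp2*-null and 2455, 2316 and 2829 CPM in B6J mice, so that every mutant mouse lay above every B6J mouse. Against B6J mice, the median was 0.54 in *Gtpbp1*-null and 0.56 in *Gtpbp2*-null mice, with 4 and 11 members called higher by edgeR after Benjamini-Hochberg adjustment. Both of these comparisons use the same B6J libraries. In them, edgeR called 80 of 13956 genes higher (0.573%) and 24 lower (0.172%) in *Gtpbp1*-null mice, and 176 of 13797 higher (1.28%) and 230 lower (1.67%) in *Gtpbp2*-null mice. *Aars*, the alanine enzyme and the member with the most footprints, had 529.7, 461 and 447 CPM, 634, 534 and 509 CPM and 285, 274 and 335 CPM in the same order of genotypes. Their mitochondrial counterparts had a median of -0.27 over 17 genes, with *Iars2* and *Hars2* lower at an unadjusted p under 0.05, but of -0.07 without *Gtpbp2*-null replicate 2. Mitochondrial ribosomal proteins had a median of 0.15 over 79 genes, 10 higher and *Mrpl51* lower. *Mrpl42* was the clearest, at 45.7, 43.6 and 36.9 CPM in *Gtpbp1*-null and 20.9, 19.3 and 25.4 CPM in *Gtpbp2*-null mice, with no overlap. The number of higher members was 5 without *Gtpbp2*-null replicate 2 and 6 without *Gtpbp2*-null replicate 1.

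**Figure D2:**
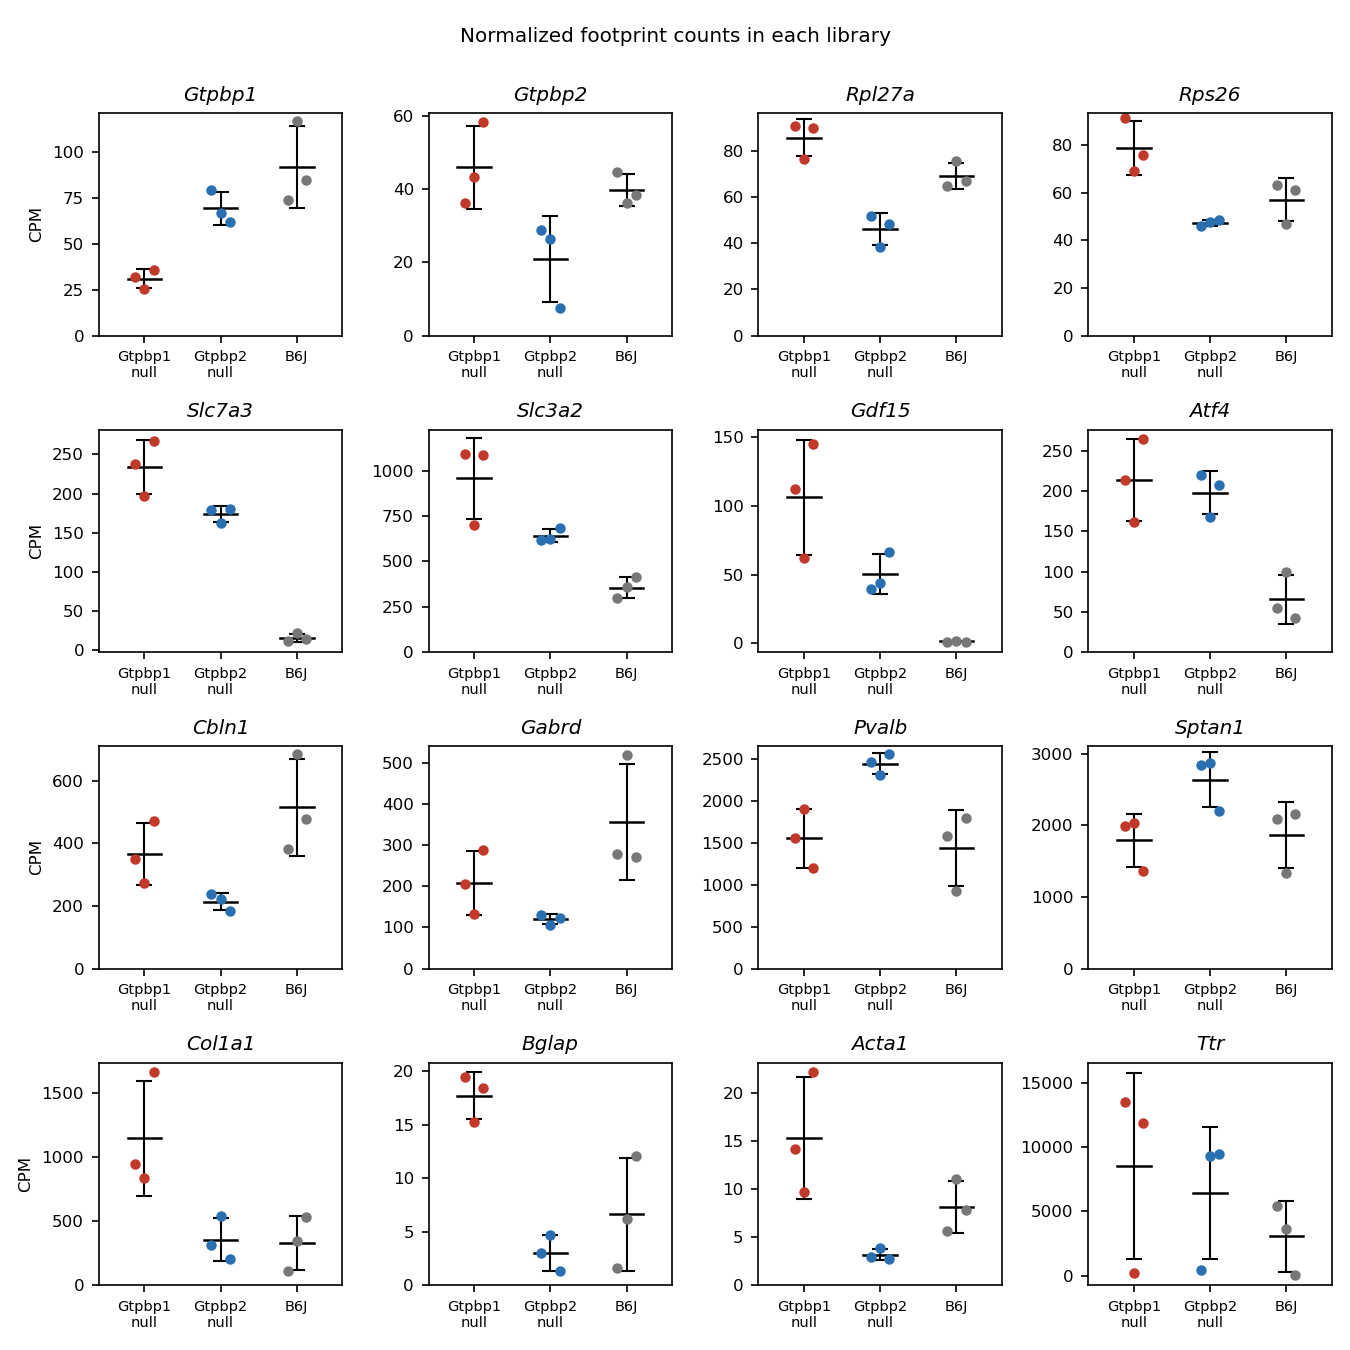
Normalized footprint counts (CPM) of 16 named genes in each library of *Gtpbp1*-null, *Gtpbp2*-null and B6J mice, with the mean as a horizontal line and error bars of 1 SD (3 mice each). For *Slc7a3* and *Gdf15* both mutants lie above all B6J mice and the *Gtpbp1*-null mean is the higher.

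Among stress genes, targets of ATF4 and the integrated stress response were above B6J mice in both mutants. The list has 43 gene entries, *Ddit3* having 2, all tested. Their summed level was 6001, 4789 and 6707 CPM in *Gtpbp1*-null, 5054, 4757 and 5372 CPM in *Gtpbp2*-null and 2049, 2427 and 2635 CPM in B6J mice. Every mutant mouse was above every B6J mouse, and the mutants overlapped, replicate 2 being the lowest in each. Median differences from B6J mice were 1.63 and 1.51, with 27 and 32 members higher at an adjusted p of at most 0.05 (edgeR, Benjamini-Hochberg). Between the mutants the median was 0.11, with 10 members higher in *Gtpbp1*-null mice and 3 lower at an unadjusted p under 0.05. The median was 0.04 without *Gtpbp1*-null replicate 3 and 0.29 without *Gtpbp1*-null replicate 2. Of the members, 30 had a confidence interval between -1 and 1. The higher count was 3 without *Gtpbp2*-null replicate 2, and 4 without *Gtpbp1*-null replicate 3 or *Gtpbp2*-null replicate 1. The lower count was 6 without *Gtpbp1*-null replicate 3 and 1 without *Gtpbp2*-null replicate 2.

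Of the members that were higher in *Gtpbp1*-null mice, *Gdf15*, a stress hormone that signals to the hindbrain, had 112, 61.8 and 145 CPM in *Gtpbp1*-null mice, 39.7, 44.0 and 66.6 CPM in *Gtpbp2*-null mice and 1.12, 1.98 and 1.27 CPM in B6J mice. *Gtpbp1*-null replicates 1 and 3 were above all others and replicate 2 lay within the *Gtpbp2*-null range, with a log2 difference of 1.07 ± 0.30 (SE) and an unadjusted p of 0.00390. *Slc3a2*, the shared heavy chain of several amino acid exchangers, stood at 1089.8, 699.7 and 1086 CPM, 619, 625 and 683 CPM and 295, 356 and 411 CPM in the same order, without overlap between the mutants. *Slc7a3*, a carrier of arginine and lysine, was at 238, 198 and 267 CPM and 179, 162 and 180.4 CPM in the mutants and 11.6, 21.4 and 13.8 CPM in B6J mice. Here too every *Gtpbp1*-null mouse was the higher, by 0.43 ± 0.17 (SE) log2 units. The transporters *Slc7a11* (0.58), *Slc1a4* (0.56) and *Slc6a9* (0.45), the proline enzyme *Pycr1* (0.63), the secreted protein *Stc2* (0.64) and the regulators *Nupr1* (0.68) and *Cebpb* (0.55) made up the rest, the mutants overlapping in *Slc7a11*, *Stc2* and *Cebpb*.

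On the lower side were *Aldh1l2* and *Mthfd1l*, enzymes of the mitochondrial folate pathway, and *Trib3*, an inhibitor of ATF4. *Aldh1l2* had 26.1, 22.7 and 31.4 CPM in *Gtpbp1*-null and 82.0, 81.7 and 28.5 CPM in *Gtpbp2*-null mice, against 5.37, 10.4 and 7.15 CPM in B6J mice. *Gtpbp2*-null replicates 1 and 2 were high, while replicate 3 lay among the *Gtpbp1*-null mice (log2 difference -1.25 ± 0.35 (SE), unadjusted p 0.00448). *Mthfd1l* was at 35.3, 31.6 and 23.4 CPM against 51.6, 63.8 and 36.8 CPM, without overlap. Another folate enzyme of mitochondria, *Shmt2*, overlapped at 123, 118 and 168 CPM against 175, 160.3 and 138 CPM.

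*Atf4* itself had 215, 162 and 265 CPM in *Gtpbp1*-null, 219.8, 168 and 207 CPM in *Gtpbp2*-null and 55.05, 99.8 and 42.1 CPM in B6J mice. The confidence interval of the difference between mutants ran between -0.33 and 0.55. *Asns*, which makes asparagine, was at 494, 433 and 411 CPM against 442, 372 and 449.6 CPM, with B6J mice at 149.7, 154 and 189 CPM. *Chac1*, which degrades glutathione, was at 45.1, 40.2 and 57.6 CPM and 38.8, 42.1 and 42.6 CPM with 7.38, 8.15 and 8.42 CPM in B6J mice. In all 3 genes the mutants overlapped and every mutant mouse lay above every B6J mouse. *Sesn2* (0.23), an inhibitor of mTORC1, *Ddr2* (0.11), a collagen receptor, *Slc7a1* (0.09), an arginine carrier, *Trim66* (-0.14) and *Ddit4* (-0.09) had differences between the mutants that were smaller than their standard errors. The kinases and regulators of the response had a median of 0.00 over 10 genes, with only *Eif2ak4*, the gene of GCN2, lower at an unadjusted p under 0.05. It had 14.4, 15.97 and 17.4 CPM in *Gtpbp1*-null and 28.8, 27.5 and 17.2 CPM in *Gtpbp2*-null mice, where replicates 1 and 2 of the *Gtpbp2*-null mice were high and replicate 3 lay within the *Gtpbp1*-null range. Fits with 1 library left out gave kinase and regulator medians from -0.15 (without *Gtpbp2*-null replicate 2) to 0.11 (without *Gtpbp2*-null replicate 3), with 0 higher and 0 to 3 lower.

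Chaperones and sensors of the endoplasmic reticulum had a median of 0.25 over 23 genes, with the cochaperones *Sdf2l1* and *Dnajb9* higher and the sensor *Ern1* lower at an unadjusted p under 0.05. *Sdf2l1* was at 30.6, 23.4 and 41.7 CPM and 17.3, 18.7 and 18.8 CPM, without overlap. The chaperone *Hspa5*, with the most footprints, overlapped at 1307, 936 and 997 CPM and 983, 1087 and 961 CPM. When 1 library was left out, endoplasmic reticulum medians ran from 0.14 (without *Gtpbp1*-null replicate 1) to 0.32 (without *Gtpbp1*-null replicate 2), with 2 to 6 higher and 0 to 2 lower. Heat shock proteins had a median of 0.02 over 21 genes and genes of oxidative stress and glutathione one of 0.03 over 24, and edgeR's test gave 0 members at an unadjusted p under 0.05 in either. Leave-one-out fits gave heat shock medians from -0.18 (without *Gtpbp1*-null replicate 1) to 0.19 (without *Gtpbp1*-null replicate 3), with 0 to 3 higher and 0 to 3 lower, and oxidative stress medians from -0.02 (without *Gtpbp2*-null replicate 2) to 0.16 (without *Gtpbp2*-null replicate 3), with 0 to 2 higher and 0 to 2 lower. *Mt1*, a metallothionein, was high in replicate 3 of each mutant (914, 879.9 and 2411 CPM and 936, 948 and 2998 CPM). *Cdkn1a*, the cell cycle inhibitor that p53 turns on, had the same pattern, with 92.3, 79.3 and 233 CPM and 122, 99.8 and 216 CPM. The list of p53 targets and apoptosis genes had a median of -0.03 over 27 genes, with *Mdm2* alone lower at an unadjusted p under 0.05. The leave-one-out median of p53 and apoptosis genes ran from -0.08 (without *Gtpbp2*-null replicate 2) to -0.04 (without *Gtpbp2*-null replicate 3), with 0 to 2 higher and 0 to 1 lower. Immediate early genes had a median of 0.12 over 21 genes, with *Egr1* and *Egr3* higher. Across fits with 1 library left out, immediate early gene medians ran from 0.07 (without *Gtpbp1*-null replicate 2) to 0.28 (without *Gtpbp2*-null replicate 2), with 1 to 4 higher and 0 to 1 lower. *Egr3*, a transcription factor induced by neuronal activity, was higher in each *Gtpbp1*-null mouse (3.32, 7.12 and 7.18 CPM against 2.50, 1.38 and 2.22 CPM).

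Factors of nonsense-mediated decay had a median of -0.21 over 17 genes, with *Smg1*, *Smg6*, *Rbm8a* and *Casc3* lower in *Gtpbp1*-null mice at an unadjusted p under 0.05. The count was 2 without *Gtpbp2*-null replicate 1, without *Gtpbp2*-null replicate 2 or without *Gtpbp1*-null replicate 2. The median was -0.12 without *Gtpbp2*-null replicate 1 or 2 and -0.11 without *Gtpbp1*-null replicate 3. Summed, they had 903, 902 and 848 CPM in *Gtpbp1*-null and 1099.8, 1127 and 924 CPM in *Gtpbp2*-null mice, without overlap, and 1223, 1127 and 914 CPM in B6J mice. *Smg1*, the kinase of the pathway, varied widely among mice, with 62.8, 80.3 and 116 CPM, 175, 244 and 102 CPM and 398, 328 and 89.8 CPM in the 3 genotypes. Proteasome subunits had a median of 0.12 over 35 genes with 0 higher and 0 lower in edgeR's test at an unadjusted p under 0.05. For proteasome genes, leave-one-out medians ran from 0.04 (without *Gtpbp2*-null replicate 2) to 0.22 (without *Gtpbp1*-null replicate 3), with 0 to 4 higher and 0 lower. Autophagy and lysosome genes had a median of 0.02 over 30, with the lysosomal genes *Ctsd* and *Lamp1* and the autophagosome protein *Map1lc3a* higher and *Atg16l1* lower. Medians of autophagy and lysosome genes in leave-one-out fits ran from -0.03 (without *Gtpbp2*-null replicate 1) to 0.07 (without *Gtpbp2*-null replicate 3), with 1 to 4 higher and 0 to 2 lower. The protease *Ctsd* had 398, 289 and 389 CPM in *Gtpbp1*-null and 189, 184 and 301 CPM in *Gtpbp2*-null mice, where replicate 3 of the *Gtpbp2*-null mice reached the *Gtpbp1*-null range.

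In energy metabolism, nuclear genes of oxidative phosphorylation had a median of 0.11 over 76 genes, with 8 higher and 2 lower (*Cycs* and *Ndufv1*) at an unadjusted p under 0.05. The higher count was 4 without *Gtpbp2*-null replicate 1 or 2 and 5 without *Gtpbp1*-null replicate 1. *Atp5g1*, a subunit of the ring of ATP synthase, was the clearest at 144, 157 and 155 CPM against 102, 93.0 and 85.9 CPM, without overlap. *Atp5b*, the catalytic subunit and the member with the most footprints, overlapped at 2528, 2198 and 2234 CPM against 2556, 2386 and 2568 CPM. The 13 genes of the mitochondrial genome, translated by mitochondrial ribosomes, had a median of 0.65. Summed, they stood at 9638, 10209.7 and 8417 CPM in *Gtpbp1*-null, 7218, 2575 and 7418 CPM in *Gtpbp2*-null and 3385, 5889 and 11085 CPM in B6J mice. Each *Gtpbp1*-null mouse was above each *Gtpbp2*-null mouse, and the range of B6J mice overlapped both groups. Replicate 2 of the *Gtpbp2*-null mice was far below the others of its genotype and below all B6J mice. The median of the list was 0.37 without that library, 1.16 without *Gtpbp2*-null replicate 1 and 0.15 without *Gtpbp1*-null replicate 3. *mt-Nd4*, *mt-Nd2*, *mt-Nd1*, *mt-Cytb* and *mt-Nd5* were higher at an unadjusted p under 0.05, a count that was 2 without any 1 of the *Gtpbp1*-null libraries, and *mt-Nd6* was lower. *mt-Nd6*, the only member encoded on the light strand, had 256, 307 and 309 CPM and 722, 257 and 703 CPM, with *Gtpbp2*-null replicates 1 and 3 high. Enzymes of cholesterol synthesis had a median of 0.10 over 23 genes, with *Dhcr7* and *Fdps* higher and *Lss* lower. *Lss*, which closes the sterol rings, was at 27.1, 28.4 and 29.9 CPM and 46.6, 47.0 and 40.5 CPM, without overlap. *Fdps*, which makes farnesyl diphosphate, had few footprints, at 1.15, 1.61 and 2.50 CPM and 0.781, 0 and 0.0967 CPM. Fits with 1 library left out gave cholesterol synthesis medians from 0.04 (without *Gtpbp1*-null replicate 1) to 0.22 (without *Gtpbp2*-null replicate 1), with 0 to 6 higher and 1 lower.

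Among neuronal genes, glutamate receptors and their auxiliary subunits had a median of 0.15 over 35 genes, 5 of them higher at an unadjusted p under 0.05. These were *Cacng3*, *Cacng5*, *Cacng8* and *Shisa9*, which escort AMPA receptors, and the metabotropic receptor *Grm3*. *Cacng3* had 33.6, 32.6 and 45.3 CPM in *Gtpbp1*-null, 20.6, 20.9 and 25.5 CPM in *Gtpbp2*-null and 16.6, 15.2 and 12.9 CPM in B6J mice, with no overlap between the mutants. The count in the list was 2 without *Gtpbp1*-null replicate 3, 3 without replicate 2 and 10 without replicate 1 of that genotype. The median was 0.29 without *Gtpbp1*-null replicate 1, 0.04 without *Gtpbp2*-null replicate 1 and 0.23 without *Gtpbp2*-null replicate 2.

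Genes of GABA and glycine transmission had a median of 0.15 over 28 genes. The receptor subunits *Gabrd*, *Gabra6* and *Gabra5* and the transporter *Slc6a11* were higher, and the GABA-making enzymes *Gad1* and *Gad2* lower, at an unadjusted p under 0.05. *Gabrd*, which forms the extrasynaptic receptors of granule neurons, was at 205, 132 and 288 CPM in *Gtpbp1*-null, 130.3, 106 and 123 CPM in *Gtpbp2*-null and 279, 521 and 272 CPM in B6J mice. The *Gtpbp2*-null mice were lowest without overlap, although *Gtpbp1*-null replicate 2 came close to them. *Gad1* ran the other way, with 719, 961 and 482 CPM against 983, 1031 and 1096 CPM and no overlap. The count of higher members was 1 without *Gtpbp2*-null replicate 2 and 2 without *Gtpbp1*-null replicate 2 or *Gtpbp2*-null replicate 1. When 1 library was left out, GABA and glycine medians ran from -0.00 (without *Gtpbp1*-null replicate 2) to 0.30 (without *Gtpbp2*-null replicate 3), with 1 to 5 higher and 0 to 2 lower.

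Potassium channels had a median of 0.08 over 54 genes, with *Kcnd2*, *Kcnmb4*, *Kcnk1* and *Kcnk12* higher and *Kcnab1* lower at an unadjusted p under 0.05. The higher count was 1 without *Gtpbp1*-null replicate 3 and 2 without *Gtpbp2*-null replicate 1 or 3. The leave-one-out median of potassium channel genes ran from -0.00 (without *Gtpbp2*-null replicate 1) to 0.15 (without *Gtpbp1*-null replicate 1), with 1 to 5 higher and 1 to 3 lower. *Kcnd2*, which carries the transient current of granule neurons, had 129.6, 119 and 139 CPM in *Gtpbp1*-null, 98.6, 81.7 and 97.7 CPM in *Gtpbp2*-null and 199, 312 and 223 CPM in B6J mice. The mutants did not overlap and both lay below all B6J mice. Voltage-gated sodium and calcium channels had a median of -0.15 over 28 genes, with *Cacna2d1* higher and *Cacna1d* and *Cacna1a* lower, or 6 lower without *Gtpbp2*-null replicate 3, 4 without *Gtpbp1*-null replicate 3 and 1 without *Gtpbp1*-null replicate 1 or *Gtpbp2*-null replicate 2. Their median was -0.02 without *Gtpbp1*-null replicate 1, -0.24 without *Gtpbp1*-null replicate 2, -0.05 without *Gtpbp2*-null replicate 2 and -0.00 once a trend of the difference on coding length was taken out. *Cacna1d*, an L-type calcium channel, was at 17.6, 28.3 and 29.7 CPM and 59.4, 77.3 and 29.3 CPM, where replicate 3 of the *Gtpbp2*-null mice fell within the *Gtpbp1*-null range.

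Genes of synaptic vesicle release had a median of -0.03 over 46 genes. *Synpr*, *Slc17a7* and *Sv2b*, all proteins of the vesicle membrane, were higher, and *Unc13b*, *Unc13c*, *Rims2* and *Erc1*, large proteins of the release site, lower at an unadjusted p under 0.05. These were 6.52% and 8.70% of the list, near the 5.44% and 5.32% of all tested genes. The lower count was 2 without *Gtpbp2*-null replicate 1 or 2 and 1, beside 4 higher, with the trend on coding length taken out. The higher count was 1 without *Gtpbp1*-null replicate 1 or *Gtpbp2*-null replicate 2 or 3. The median was 0.04 without *Gtpbp1*-null replicate 3, -0.10 without *Gtpbp1*-null replicate 2 and -0.01 without *Gtpbp2*-null replicate 1 or 2. *Synpr* had 175, 169 and 192 CPM in *Gtpbp1*-null, 119, 95.2 and 127 CPM in *Gtpbp2*-null and 183, 245 and 233 CPM in B6J mice, the *Gtpbp2*-null mice being lowest without overlap. Scaffold and adhesion genes of the postsynapse had a median of -0.01 over 32 genes, with *Lrrtm2*, *Cbln1*, *Cbln2* and *Cbln3*, organizers of synapses, higher and 0 lower in edgeR's test at an unadjusted p under 0.05. Across fits with 1 library left out, postsynaptic medians ran from -0.07 (without *Gtpbp1*-null replicate 3) to 0.09 (without *Gtpbp2*-null replicate 2), with 3 to 6 higher and 0 to 5 lower. *Lrrtm2*, an adhesion protein of excitatory synapses, stood at 36.9, 42.6 and 35.2 CPM against 19.2, 23.1 and 25.8 CPM, without overlap. Axon guidance ligands and receptors had a median of 0.09 over 56 genes, with the ephrins *Efna2* and *Efnb1* and the semaphorin *Sema4a* higher. For axon guidance genes, leave-one-out medians ran from -0.02 (without *Gtpbp2*-null replicate 3) to 0.17 (without *Gtpbp1*-null replicate 1), with 0 to 7 higher and 0 to 2 lower. Proteoglycans and tenascins of the brain matrix had a median of 0.19 over 18 genes, with *Ncan*, made by neurons and glia, higher (90.4, 128 and 193 CPM against 75.6, 78.1 and 79.2 CPM). Medians of brain matrix genes in leave-one-out fits ran from 0.09 (without *Gtpbp1*-null replicate 2) to 0.25 (without *Gtpbp2*-null replicate 2), with 1 to 4 higher and 0 to 1 lower. *Spock2*, the member with the most footprints, overlapped at 1367, 1424 and 1407 CPM against 1409, 1422 and 1514 CPM.

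Cytoskeletal and axonal genes included long genes that were lower in *Gtpbp1*-null mice. Of 32 genes, 22 had a negative difference, the median was -0.09, and 6 were lower at an unadjusted p under 0.05, with *Tuba1a* alone higher. Among the lower ones were the spectrins *Sptan1* and *Sptbn1*, the ankyrin *Ank3*, the kinesin *Kif1a* and *Map1a*, all long proteins. *Sptan1* had 1985, 2029 and 1358 CPM in *Gtpbp1*-null, 2848, 2879 and 2199 CPM in *Gtpbp2*-null and 2094, 1335 and 2167 CPM in B6J mice. The mutants did not overlap, and all B6J mice lay below the *Gtpbp2*-null mice. The count was 2 without *Gtpbp2*-null replicate 2, 3 without *Gtpbp2*-null replicate 1 and 1 once a trend of the difference on coding length was taken out. The median was -0.00 without *Gtpbp1*-null replicate 3, -0.21 without *Gtpbp1*-null replicate 2 and -0.14 without *Gtpbp2*-null replicate 3.

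Of the cell types of the cerebellum, markers of granule neurons, the most numerous neurons of the tissue, were higher in *Gtpbp1*-null than in *Gtpbp2*-null mice. In bulk tissue, fewer cells of a type and less RNA per cell, or fewer footprints on it, cannot be told apart from footprints alone. The RNA of the same genotypes gave these markers a median difference of -0.01. Of 15 markers, 13 had a positive difference, the median was 0.52, and 8 were higher and 0 lower in edgeR's test at an unadjusted p under 0.05. Summed, they stood at 6976, 5374 and 7432 CPM in *Gtpbp1*-null, 5566, 4972 and 4626 CPM in *Gtpbp2*-null and 7288, 10161 and 7965 CPM in B6J mice. *Gtpbp1*-null replicate 2 fell within the *Gtpbp2*-null range, and all *Gtpbp2*-null mice were below all B6J mice. *Cbln1*, secreted onto Purkinje cells to hold their synapses, had 349, 274 and 472 CPM, 237, 221 and 184 CPM and 381, 686 and 477 CPM in the same order of genotypes. *Neurod1*, a transcription factor of these neurons that was chosen after its values were seen, had 591, 411 and 449 CPM, 334, 273 and 320.0 CPM and 522, 854 and 836 CPM. In both genes the *Gtpbp2*-null mice were lowest without overlapping the *Gtpbp1*-null mice. *Gabra6*, *Cbln3*, *Slc17a7*, *Rbfox3*, *Zic1* and *Zic2* were the other 6 at an unadjusted p under 0.05. The marker with the most footprints, *Calb2* (22.8% of the sum), had 1759, 1309.6 and 1429 CPM, 1373, 915 and 1178 CPM and 733, 926 and 1043 CPM. Its *Gtpbp1*-null values were above all B6J mice and its *Gtpbp2*-null values overlapped both. Set beside B6J mice, whose libraries both comparisons share, the median of the list was -0.55 in *Gtpbp1*-null and -0.92 in *Gtpbp2*-null mice, with 0 and 8 markers lower at an adjusted p of at most 0.05 (edgeR, Benjamini-Hochberg). Over all tested genes the same measure called 0.172% lower in *Gtpbp1*-null and 1.67% lower in *Gtpbp2*-null mice, so the 2 counts are not on an equal footing. The 8 higher markers became 4 without *Gtpbp1*-null replicate 3 or *Gtpbp2*-null replicate 2 and 5 without *Gtpbp2*-null replicate 3.

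Purkinje cell markers lay the other way. The median of 13 markers was -0.27, 11 had a negative difference, and 2 were lower at an unadjusted p under 0.05, *Pvalb* with the smaller p. *Pvalb*, a calcium buffer of Purkinje cells and interneurons, was at 1550.0, 1902 and 1199.5 CPM in *Gtpbp1*-null, 2461, 2305 and 2558 CPM in *Gtpbp2*-null and 1579, 928 and 1791 CPM in B6J mice. The *Gtpbp2*-null mice were above all other mice. *Pvalb* lies within 2 Mb of *Gtpbp1*, so that an effect of sequence linked to the *Gtpbp1* allele and of the missing protein cannot be told apart. *Itpr1*, a calcium release channel and the marker with the most footprints (26.5% of the sum), had 4538, 4151 and 2086 CPM and 5769, 6102 and 4212 CPM, *Gtpbp2*-null replicate 3 reaching the *Gtpbp1*-null range. *Pcp2*, chosen after its values were seen, went against the list, higher in each *Gtpbp1*-null mouse at 1822, 1859 and 1940.0 CPM against 1370.5, 1629.6 and 1477 CPM. Summed, the list had 16062, 17738 and 10092 CPM in *Gtpbp1*-null, 19987, 20346 and 17239.5 CPM in *Gtpbp2*-null and 13273, 8895 and 17929.5 CPM in B6J mice, with overlap between the mutants. The median moved to -0.11 without *Gtpbp1*-null replicate 3 and to -0.47 without replicate 2. The count of lower markers was 7 without *Gtpbp1*-null replicate 2, 4 without *Gtpbp2*-null replicate 3 and 1 without *Gtpbp2*-null replicate 1 or 2. Markers of inhibitory interneurons had a median of -0.17 over 11 genes, *Gad1* and *Gad2* being lower at an unadjusted p under 0.05. Fits with 1 library left out gave interneuron medians from -0.32 (without *Gtpbp1*-null replicate 2) to -0.00 (without *Gtpbp2*-null replicate 3), with 0 to 1 higher and 0 to 2 lower. The 4 markers of unipolar brush cells had a median of 0.18 and none at an unadjusted p under 0.05 in edgeR's test, with sums of 39.8, 22.5 and 29.7 CPM and 28.1, 28.3 and 36.6 CPM. When 1 library was left out, unipolar brush cell medians ran from -0.02 (without *Gtpbp1*-null replicate 1) to 0.37 (without *Gtpbp2*-null replicate 3), with 0 higher and 0 to 1 lower.

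Among glia, microglia markers lay on the higher side. Of 14 markers 13 had a positive difference, with a median of 0.41 and 4 higher at an unadjusted p of up to 0.05, *Tmem119*, *Csf1r*, *Fcrls* and *P2ry12*. Their sums were 1185, 624 and 1106 CPM in *Gtpbp1*-null, 646, 564 and 955 CPM in *Gtpbp2*-null and 408, 449 and 371 CPM in B6J mice. Both mutants lay above all B6J mice, and *Gtpbp1*-null replicates 1 and 3 were the highest, replicate 2 falling within the *Gtpbp2*-null range. *Tmem119*, a surface protein of resident microglia, had 14.1, 13.1 and 21.9 CPM in *Gtpbp1*-null and 9.53, 10.2 and 10.2 CPM in *Gtpbp2*-null mice, without overlap. The count was 0 without *Gtpbp1*-null replicate 3 or *Gtpbp2*-null replicate 1, 2 without *Gtpbp1*-null replicate 1 or *Gtpbp2*-null replicate 2, and 7 without *Gtpbp1*-null replicate 2. The median was 0.27, 0.66 and 0.25 without *Gtpbp1*-null replicates 1, 2 and 3 in turn, and 0.63 without *Gtpbp2*-null replicate 3. Markers of astrocytes and Bergmann glia had a median of 0.15 over 15 genes, with *Hopx*, *Aqp4* and *Timp4* higher. The leave-one-out median of astrocyte genes ran from -0.09 (without *Gtpbp1*-null replicate 3) to 0.35 (without *Gtpbp2*-null replicate 3), with 1 to 3 higher and 0 lower. *Hopx*, a marker of Bergmann glia, had 199, 197 and 233 CPM against 140.2, 123 and 115 CPM without overlap. *Slc1a3*, a glutamate transporter with the most footprints of the list, overlapped at 2039, 2345 and 2471 CPM against 2423, 2112 and 2567 CPM. Oligodendrocyte and myelin markers had a median of -0.10 over 15 genes and none at an unadjusted p under 0.05 in edgeR's test. Across fits with 1 library left out, oligodendrocyte medians ran from -0.14 (without *Gtpbp1*-null replicate 1) to -0.04 (without *Gtpbp2*-null replicate 2), with 0 higher and 0 to 1 lower. Their precursors had a median of 0.21 over 7, with *Gpr17* higher (81.0, 81.2 and 74.3 CPM against 48.3, 66.0 and 58.7 CPM, without overlap). Leave-one-out medians of precursor markers ran from 0.09 (without *Gtpbp1*-null replicate 3) to 0.30 (without *Gtpbp1*-null replicate 1), with 0 to 1 higher and 0 lower.

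Endothelial markers had a median of 0.00 over 11 genes with none at an unadjusted p under 0.05 in edgeR's test. For endothelial genes, leave-one-out medians ran from -0.28 (without *Gtpbp1*-null replicate 1) to 0.25 (without *Gtpbp1*-null replicate 3), with 0 to 1 higher and 0 to 1 lower. Pericyte and smooth muscle markers had a median of 0.25 over 9 genes, with *Vtn* and *Anpep* higher and the contractile genes *Acta2* and *Myh11* lower. Medians of pericyte and smooth muscle genes in leave-one-out fits ran from -0.42 (without *Gtpbp1*-null replicate 1) to 0.38 (without *Gtpbp1*-null replicate 2), with 0 to 3 higher and 1 to 3 lower. *Acta2* was at 57.4, 38.1 and 33.9 CPM in *Gtpbp1*-null and 68.9, 85.3 and 59.2 CPM in *Gtpbp2*-null mice. *Vtn*, a pericyte gene with the most footprints of the list, was at 524, 286 and 359.5 CPM and 238, 235 and 266 CPM. Neither gene overlapped between the mutants. Meningeal and fibroblast markers were positive for all 10 genes, with a median of 0.63 and *Lum*, *Dcn*, *Slc22a6* and *Igf2* higher at an unadjusted p under 0.05. This count was 8 without *Gtpbp2*-null replicate 3 and 2 without *Gtpbp1*-null replicate 3 or *Gtpbp2*-null replicate 1, and the median 0.38 without *Gtpbp2*-null replicate 1 and 0.99 without *Gtpbp1*-null replicate 2. Their sums, 4574, 2597 and 5779.7 CPM against 1868, 2769 and 5283 CPM, overlapped, and *Ptgds* made up 83.2% of them. *Lum*, a collagen-binding proteoglycan, was at 42.1, 14.9 and 20.04 CPM against 7.97, 11.3 and 6.48 CPM. Choroid plexus markers had a median of 0.16 over 12 genes and none at an unadjusted p under 0.05 in edgeR's test. Fits with 1 library left out gave choroid plexus medians from -0.26 (without *Gtpbp2*-null replicate 1) to 0.66 (without *Gtpbp1*-null replicate 2), with 0 to 1 higher and 0 lower. *Ttr*, the thyroxine carrier that made up 95.9% of their sum, had 13476, 177 and 11891 CPM in *Gtpbp1*-null, 456, 9303 and 9452 CPM in *Gtpbp2*-null and 5438, 3624 and 48.3 CPM in B6J mice. Replicate 2 of the *Gtpbp1*-null, replicate 1 of the *Gtpbp2*-null and replicate 3 of the B6J mice had little. Ependymal markers had a median of 0.27 over 7 genes with *Rarres2* higher (55.5, 45.7 and 56.9 CPM against 32.3, 35.5 and 27.4 CPM). When 1 library was left out, ependymal medians ran from -0.01 (without *Gtpbp2*-null replicate 1) to 0.51 (without *Gtpbp2*-null replicate 3), with 1 higher and 0 lower. The 4 of 11 brainstem neuron markers that could be tested had a median of -0.14 and none at an unadjusted p under 0.05 in edgeR's test. The leave-one-out median of brainstem genes ran from -0.36 (without *Gtpbp1*-null replicate 2) to 1.48 (without *Gtpbp2*-null replicate 3), with 0 to 1 higher and 0 to 1 lower. *Th*, the enzyme of catecholamine neurons, overlapped at 37.8, 66.0 and 41.4 CPM against 52.97, 67.9 and 90.7 CPM.

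Apart from Y-linked genes, the muscle, neutrophil and marrow, cartilage, bone and osteoclast lists had the largest medians with the filter used, with no filter and with filterByExpr, although most muscle, neutrophil and marrow members had few counts. Bone and osteoblast markers were positive for all 12 tested of 14, with a median of 1.52, 8 higher and 0 lower in edgeR's test at an unadjusted p under 0.05. Their sums were 1782, 1645 and 2797 CPM in *Gtpbp1*-null, 738, 1083 and 722 CPM in *Gtpbp2*-null and 389.8, 772 and 1022 CPM in B6J mice. Every *Gtpbp1*-null mouse was above every other mouse, and *Gtpbp2*-null and B6J mice overlapped. *Col1a1*, the chain of type I collagen that made up 51.3% of the sum, had 948, 833 and 1660.4 CPM, 314, 537 and 207 CPM and 109.9, 345 and 528 CPM in the same order. *Col1a2*, its partner chain, had 593, 519 and 939 CPM, 285, 427 and 264 CPM and 158, 306 and 341 CPM. Both chains separated the mutants without overlap, with log2 differences of 1.70 and 1.07. *Ifitm5*, a defining osteoblast gene named because of its values, was at 0 in all *Gtpbp2*-null mice and at 0.144, 0.345 and 0.501 CPM in *Gtpbp1*-null mice, too few counts to be tested.

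Cartilage markers had a median of 1.53 over 8 of 9 genes, with *Cnmd*, *Col11a1*, *Comp* and *Sox9* higher and *Matn1* lower at an unadjusted p under 0.05, and of 0.64 without *Gtpbp1*-null replicate 2. Their sums were 153, 478 and 152 CPM, 94.5, 112 and 116 CPM and 111, 136 and 144 CPM in *Gtpbp1*-null, *Gtpbp2*-null and B6J mice, the mutants without overlap, and *Sox9*, which glia also make, was 38.0% of them. *Comp*, a cartilage matrix protein, was highest in *Gtpbp1*-null replicate 2 (3.75, 35.8 and 4.17 CPM in *Gtpbp1*-null and 0.938, 1.65 and 0.484 CPM in *Gtpbp2*-null mice).

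Skeletal muscle markers had a median of 1.95 over 18 of 21 genes, 10 of them higher at an unadjusted p under 0.05, with *Myh2* at 0 in all *Gtpbp2*-null mice. With *Myh2* taken at its bound the median was the same. Of the genes tested, 4 reached 5 counts in every *Gtpbp1*-null library but in no *Gtpbp2*-null library, and 0 the other way round, so that these entered the test by their *Gtpbp1*-null counts. With no filter the median was 1.89 over all 21 genes with 11 higher, and with filterByExpr 1.04 over 8 with 4 higher. Their sums of 137, 93.0 and 144 CPM in *Gtpbp1*-null, 128, 191 and 55.3 CPM in *Gtpbp2*-null and 133, 162 and 103 CPM in B6J mice overlapped, and 53.6% of them came from *Ryr1*, a calcium channel that Purkinje cells also make. *Myh1*, a fast myosin with near copies in the genome, had 5.19, 3.79 and 7.68 CPM and 0, 2.48 and 0.0967 CPM, without overlap. The count was 3 of 12 tested without *Gtpbp1*-null replicate 3, 4 of 13 without replicate 1 and 6 of 13 without replicate 2, the filter being applied again to the libraries left. The median was 0.81, 0.73 and 0.67 over these members without *Gtpbp1*-null replicates 1, 2 and 3 in turn, and -0.71 where a mean of at least 50 counts was required, which leaves 3 members.

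Neutrophil and marrow markers had a median of 1.86 over 10 of 12 genes, 6 of them higher at an unadjusted p under 0.05, or 2 with a median of 1.00 over the 6 that passed the filter without *Gtpbp1*-null replicate 2. Here 3 reached 5 counts in every *Gtpbp1*-null library and in no *Gtpbp2*-null library, and 0 the other way round. The median was 1.76 over all 12 genes with no filter and 1.79 over 7 with filterByExpr. Summed they stood at 41.2, 77.1 and 41.2 CPM, 12.5, 26.4 and 24.2 CPM and 13.4, 10.8 and 31.9 CPM in *Gtpbp1*-null, *Gtpbp2*-null and B6J mice, the mutants without overlap, and *Mmp9* made up 33.8%. *Camp*, an antimicrobial peptide of neutrophil granules, had 1.44, 2.30 and 2.17 CPM against 0, 0.275 and 0.0967 CPM, without overlap. Osteoclast markers had a median of 1.00 over 4 of 6 genes, with *Ctsk*, the collagen-cutting protease of these cells, higher (16.7, 24.8 and 16.4 CPM against 11.4, 14.3 and 12.6 CPM, without overlap, 41.4% of the sum), and *Ocstamp* at 0 in all *Gtpbp2*-null mice. Their sums were 27.0, 98.1 and 34.9 CPM in *Gtpbp1*-null and 17.2, 29.4 and 25.9 CPM in *Gtpbp2*-null mice, which overlapped. Without *Gtpbp1*-null replicate 2 the median of osteoclast markers was 0.35. Erythroid markers did not follow, with a median of -0.09 over 9 genes and none at an unadjusted p under 0.05 in edgeR's test. Across fits with 1 library left out, erythroid medians ran from -0.50 (without *Gtpbp2*-null replicate 3) to 0.80 (without *Gtpbp2*-null replicate 2), with 0 to 1 higher and 0 lower. Haemoglobin *Hbb-bs* was at 1284, 457 and 694 CPM and 491, 1901 and 441 CPM, highest in *Gtpbp2*-null replicate 2. Collagens had a median of 0.21 over 41 of 44 genes, with 7 higher and *Col7a1* and *Col4a2* lower at an unadjusted p under 0.05. *Col7a1*, the collagen of anchoring fibrils, had 3.17, 1.61 and 3.34 CPM in *Gtpbp1*-null and 28.4, 34.9 and 6.09 CPM in *Gtpbp2*-null mice, without overlap. Their higher count was 13 without *Gtpbp2*-null replicate 2 and 11 without *Gtpbp1*-null replicate 2, and 7 were lower without *Gtpbp2*-null replicate 3. Their median was 0.47 and 0.12 without *Gtpbp1*-null replicates 2 and 3, and 0.44 and 0.10 without *Gtpbp2*-null replicates 2 and 3. The part of bone, cartilage, muscle and marrow RNA in the differences of other classes was not tested.

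The mice differed in sex. The 2 of 5 Y-linked genes that could be tested had a median of 5.03 and none at an unadjusted p under 0.05 in edgeR's test. *Ddx3y* was at 120.4, 2.87 and 0.668 CPM in *Gtpbp1*-null, 2.50, 1.10 and 1.06 CPM in *Gtpbp2*-null and 84.8, 72.7 and 0.477 CPM in B6J mice. *Eif2s3y* was at 44.7, 1.03 and 0.501 CPM and 0.781, 0.550 and 0 CPM in the mutants. *Gtpbp1*-null replicate 1 was the only one of the 6 mutant libraries with high levels of both, and without it the median was 0.24.

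The difference between the mutants also varied with the length of the coding sequence, longer genes being lower in *Gtpbp1*-null mice, with a Spearman rho of -0.357 across 14105 genes, which are not independent of each other. The relation was looked for after the data were seen. The quartile of genes with the shortest coding sequences had a median difference of 0.15, and the next quartiles 0.06, -0.04 and -0.18. In the shortest quartile 361 genes were higher and 51 lower at an unadjusted p under 0.05, and in the longest 65 were higher and 446 lower. In the mice, the median log2 deviation of the longest quartile from the mean of the 6 libraries was -0.12, -0.05 and -0.08 in *Gtpbp1*-null and 0.12, 0.20 and -0.05 in *Gtpbp2*-null mice. *Gtpbp2*-null replicates 1 and 2 were high, while replicate 3 was close to the *Gtpbp1*-null mice. Leaving out 1 library gave a rho between -0.266, without *Gtpbp2*-null replicate 2, and -0.405, without *Gtpbp2*-null replicate 3. RNA differences between the same genotypes had a rho with length of 0.0435 over 14046 genes. *Gtpbp2*-null replicate 2 was also the shallowest library and replicate 3 the deepest, and the parts of depth and of library preparation in the trend were not tested.

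**Figure D3:**
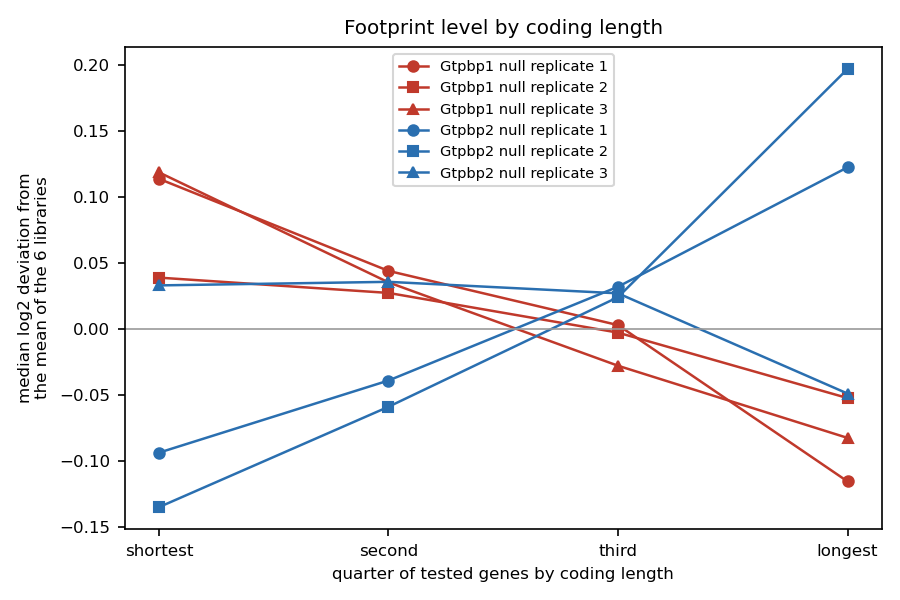
Median log2 deviation of each library from the mean of the 6 mutant libraries (vertical axis) by quartile of tested genes in coding length (horizontal axis, shortest to longest), for 3 *Gtpbp1*-null and 3 *Gtpbp2*-null mice. *Gtpbp2*-null replicates 1 and 2 climb towards the longest genes, whereas *Gtpbp2*-null replicate 3 lies near the *Gtpbp1*-null mice there.

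With the trend on length taken out of the fit, ribosomal proteins, whose coding sequences are short, had medians of 0.09 for the large and 0.14 for the small subunit, with 7 and 2 members higher and 2 and 1 lower at an unadjusted p under 0.05. For mitochondrial ribosomal proteins the median became 0.02 with 3 higher, and for nuclear genes of oxidative phosphorylation -0.06 with 4 higher and 6 lower. The ribosome rescue factors had a median of -0.14 with 3 lower, and nonsense-mediated decay factors one of -0.14 with 2 lower. Voltage-gated sodium and calcium channels moved to -0.00 with 2 higher and 2 lower, synaptic vesicle release genes to -0.00 with 4 higher and 1 lower, and cytoskeletal genes to -0.04 with 1 lower. Postsynaptic genes moved to 0.19 with 5 higher and brain matrix genes to 0.33 with 5 higher. Axon guidance genes, whose coding sequences are long, moved to 0.25 with 9 higher, and collagens to 0.32 with 15 higher. Granule neuron markers (0.50, 9 higher), ATF4 targets (0.09, 6 higher), bone markers (1.54, 9 higher) and muscle markers (1.84, 10 higher) kept the sign of their medians. The sign changed for cytosolic synthetases (0.00), autophagy and lysosome genes (-0.02) and erythroid markers (0.05), among others. Medians also moved for oligodendrocyte markers (-0.25), p53 and apoptosis genes (-0.15), ependymal markers (0.05), proteasome subunits (0.03) and potassium channels (0.17).

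AGA is the codon read by the tRNA that the B6J mutation affects. Across the same 14105 genes, the frequency of AGA codons had a rho of -0.122 with the difference between the mutants, and -0.142 across the 10934 genes with a mean of at least 50 counts. It ranked 54th of 61 sense codons, from TTC at 0.175 down to GAG at -0.211. The quartile of genes with the fewest AGA codons had a median difference of 0.08, the next ones 0.00 and -0.03, and the quartile with the most -0.05. Within quartiles of coding length, from short to long, the rho of AGA was -0.110, -0.0983, -0.0973 and -0.0610. The median deviation of the quartile with the most AGA codons was 0.13, 0.03 and -0.21 in *Gtpbp1*-null and 0.09, -0.06 and 0.04 in *Gtpbp2*-null mice. Without *Gtpbp1*-null replicate 3, the lowest of them, the quartile with the fewest AGA codons had a median of -0.01 and the quartile with the most 0.04, the opposite order.

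In RNA libraries of the same genotypes, edgeR with Benjamini-Hochberg adjustment called 4 of 25190 genes higher (0.0159%) and 11 lower (0.0437%) in *Gtpbp1*-null mice. The higher ones were *Gtpbp2*, *Ide*, *Vrtn* and *Gm26884*. Across 14079 genes, the RNA and footprint differences had a Spearman rho of -0.0145 and a Pearson r of 0.0542, with genes not independent of each other. *Ide*, the insulin-degrading enzyme, chosen after its values were seen, had footprints at 258, 236 and 138 CPM in *Gtpbp1*-null and 135, 108 and 93.7 CPM in *Gtpbp2*-null mice, without overlap. Its log2 difference was 0.91 ± 0.24 (SE) in footprints and 1.13 in RNA, although B6J mice ranged widely in footprints (221, 70.0 and 116 CPM). The RNA median was 0.02 for the large and 0.01 for the small ribosomal subunit, -0.01 for granule neuron markers, 0.04 for rescue factors, 0.06 for ATF4 targets and -0.03 for bone markers. It was 0.42 for meningeal and fibroblast markers, 0.26 for neutrophil and marrow markers, 0.73 for choroid plexus markers and -0.36 for immediate early genes. Brainstem neuron markers had an RNA median of 0.95, erythroid markers 0.85, Purkinje cell markers 0.14 and muscle markers -0.17, each opposite in sign to the footprint median. For *Rpl27a* the RNA difference was 0.08, for *Cbln1* -0.03, for *Snrnp70* -0.09 and for *Slc7a3* -0.03. For *Col1a1* it was 0.06 and for *Gdf15* 0.09. RNA and footprint libraries belong to different batches in the labels and are not stated to come from the same mice.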

How the data were processed

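Ribosome footprints and RNA were sequenced from the cerebellum of 3-week-old mice, 1 mouse for each library. For the footprints the authors removed ribosomal RNA reads with Bowtie2 (2.2.3), aligned the rest to the mm10 genome with HISAT2 (2.1.0) and the Gencode M20 annotation, and deposited raw counts per gene, made with featureCounts on coding sequence. For RNA the authors deposited kallisto (0.42.4) estimated counts (expected counts) and TPM for each transcript. The estimated counts were summed by gene and rounded, and TPM were not used.

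A gene entered the test if 3 or more of the 6 libraries had 5 or more counts. Tests used edgeR (4.0.16, R 4.3.3), by a quasi-likelihood fit with robust estimation, TMM scaling and Benjamini-Hochberg adjustment over all genes tested. The same fit compared each mutant with B6J mice and the mutants in RNA. CPM use TMM factors over all 9 footprint libraries. Files and figures were handled with Python 3.11.15, pandas 2.3.3, numpy 2.4.6, scipy 1.17.1 and matplotlib 3.10.9. The fit was tested on simulated data. Confidence intervals of differences are 95% intervals of the fit, and floors of 3 counts over a group cover counting error only.

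The 53 gene lists and the fixed gene names below were chosen with earlier results of these data known, so no p is given over a list. They cover translation, stress, degradation, metabolism, neuronal genes, cell types, collagens and Y-linked genes. A list's median is over its tested members. The genes named are the targeted genes, the 10 of smallest p in each direction, in each list the member of smallest p and the member with the most footprints, the members of most counts of 5 or fewer, and *Atf4*, *Asns*, *Chac1*, *Ddr2*, *Sesn2*, *Slc7a1*, *Slc7a3*, *Shmt2*, *Trim66*, *Ddit4*, *Rps29*, *Rplp0*, *Col1a1*, *Col1a2* and *Myh1*. Codon frequencies and coding lengths came from annotated coding sequences.

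The alternatives were DESeq2 (1.42.0), limma-voom (3.58.1), upper quartile and RLE normalization, filterByExpr, no filter, a mean of at least 50 counts, all 9 libraries in 1 model, a replicate block, sex as a covariate, no robust estimation, other window sizes and leaving out each library in turn. Sex was taken from *Ddx3y*, which was high only in *Gtpbp1*-null replicate 1 among the mutant libraries. The sex covariate is therefore not separate from leaving that library out. Removing the trend with coding length was chosen after seeing the data.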

Additional observations from a re-analysis of the deposited data

How the results depend on the processing

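Between the mutants, the genes past the adjusted p in edgeR were 0 in each direction also with RLE normalization, filterByExpr, a mean of at least 50 counts, sex as a covariate, no robust estimation, limma-voom and the coding length trend removed. The exceptions were DESeq2 with 59 higher and 41 lower, no filter with 8 and 7, upper quartile normalization with 2 and 1, and all 9 libraries with 1 lower. Leaving out 1 library gave 0 to 3 higher and 0 to 30 lower, and the cause was not tested. At an unadjusted p under 0.05, leaving out 1 library gave 439 to 795 higher and 359 to 984 lower, while the counts under the other alternatives stayed within 1.5 times. Within 2 Mb of *Gtpbp1*, 5 of 78 tested genes were higher and 5 lower (6.41% each). Within 10 Mb, 13 of 253 were higher (5.14%) and 22 lower (8.70%), beside 5.44% and 5.32% of all tested genes. Within 2 Mb of *Gtpbp2*, 1 of 59 genes was higher and 1 lower, and within 10 Mb 3 of 122 were higher and 4 lower. These windows hold other numbers of genes by construction.

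Against B6J mice, DESeq2 called 251 genes higher and 155 lower in *Gtpbp1*-null mice, and 300 higher and 355 lower in *Gtpbp2*-null mice. Leaving out 1 library gave 18 to 115 higher and 4 to 97 lower in *Gtpbp1*-null mice, and 55 to 297 higher and 51 to 322 lower in *Gtpbp2*-null mice. In RNA between the mutants DESeq2 called 21 higher and 25 lower, and leaving out 1 library gave 2 to 8 higher and 7 to 9 lower. The cause was not tested.

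With a replicate block, 0 genes were higher and 1 lower between the mutants in edgeR after adjustment, beside 792 higher and 759 lower at an unadjusted p under 0.05 and the DESeq2 counts above. Against B6J mice the block gave 40 higher and 4 lower in *Gtpbp1*-null mice. The deviations of libraries that share a replicate number had a Pearson r across genes of 0.0589, -0.104 and 0.00757 for replicates 1, 2 and 3, with genes not independent. These values do not settle whether such libraries share more than a number, which the labels do not state.

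The number of lists with a median above 0 was 37 of 53 and between 32, with sex as a covariate, and 39, with upper quartile normalization, under the alternatives. Of 954 list medians under alternatives, 902 moved by less than the spread between replicates and 52 by more, and 61 in 22 lists had the opposite sign. Of 3558 values of the 200 named genes, 81 in 33 genes had the opposite sign.

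With 3 mice in each group, the interval at the median gene was ± 0.53 log2 units. Apart from *Col1a1* and *Col1a2*, most markers of bone, muscle and marrow had few counts.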
